A study of Mus musculus with 2 samples.

Results

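Of the 16865 regions in the optimal list of MAFK binding in ES-E14 cells, 2373 were distal regions whose summit lay in repeat-masked sequence. A region was counted when its summit, the position of strongest signal within the region, was on chromosomes 1 to 19 or X, over 1 kb from every transcription start site (TSS) of GENCODE vM21 and outside exons. The base at the summit had to be soft-masked, that is, written in lower case in the RefSeq copy of GRCm38, the assembly of mm10. Regions were left out when the 500 bp on either side of the summit had both a GC share of at least 0.5 and a CpG observed-to-expected ratio of at least 0.6. The optimal list held 16836 regions on these chromosomes. The comparison class was the 11188 distal regions with the summit in unmasked sequence, chosen by the same limits, so that masked summits were 17.5% of the distal regions.

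ES-E14 is a mouse embryonic stem cell line of strain 129/Ola from a male embryo. Chromatin immunoprecipitation with sequencing (ChIP-seq) for MAFK was done in 2 biological replicates of 1 group, and the labels name no treatment. Both replicates carry the same biosample identifier, so part of their spread may be technical. The files hold regions and not reads, so the read depth is unknown.

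MAFK is a small MAF protein, a basic leucine zipper factor without a transactivation domain. It binds DNA as a homodimer, or as a heterodimer with a CNC partner such as NRF2, NFE2 or BACH1. A MAF homodimer reads a palindrome with TGC on both sides of the central AP-1 or CRE core, called the MAF recognition element (T-MARE or C-MARE). A MAF:CNC heterodimer reads an element with TGC on one side only, as in the antioxidant response element (ARE). Short interspersed elements (SINEs) are short retrotransposed sequences with very many copies in the mouse genome. Factor binding sites inside them are therefore present in many near-identical versions, which differ by single bases.

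The composite element, TGACTCAGCA or TGAGTCAGCA on either strand, is the AP-1 core followed by the TGC side that MAF contacts. The sequences below show how it is set in the members that share sequence with each other, with the composite in capitals. The first 4 are the most frequent base at each position over the members of a family with the composite, read 5′ to 3′ with the element in the orientation given.
Family 1, 598 members: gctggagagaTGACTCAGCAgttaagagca
Family 2, 58 members: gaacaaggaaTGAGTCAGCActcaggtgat
Family 4, 49 members: tgaatcagcaTGAGTCAGCAggagtgacca
Family 6, 20 members: cgtatcggggTGACTCAGCAagacctgttt
Family 3, 65 members, with the capitals at a T-MARE with up to 2 mismatches: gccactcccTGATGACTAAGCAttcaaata
Family 9, 12 members, with the capitals at the MAF core: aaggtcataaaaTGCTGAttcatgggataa
Families are numbered by size. A longer consensus of family 1, over the same 598 members, reads as follows.
Family 1, 60 bases: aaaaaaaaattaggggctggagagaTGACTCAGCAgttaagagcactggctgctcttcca
In its A-rich start, the most frequent base was at its lowest held by 27.9% of the 598 members. From general knowledge, the rest is the sequence of the tRNA-derived head of SINEs of the B2 class. The name does not come from the files, and no repeat annotation was used.

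Single members of family 1 show the same site with changes around it. The following 2 have 1 composite each within 50 bp of the summit and are given on mm10 with the strand of the element.
Skap2, chr6:52036203-52036232, plus strand: gctggggagaTGACTCAGCAgttaagagca
Stox2, chr8:47336064-47336093, minus strand: ggctgagagaTGACTCAGCAgttaaacaca
The region near Skap2, an adaptor protein gene, was intergenic, 23676 bp from the TSS. Its signal value was 234.8, against 106.8 for replicate 1 and 125.2 for replicate 2 in their relaxed lists. The region in an intron of Stox2 had 289.6, with 154.7 in replicate 1 and 135.8 in replicate 2. Both were picked from the strongest family 1 regions with 1 composite. Their place far above the median of the members, 27.4, follows from that choice. The median of family 1 regions with 1 composite was 32.1.

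The word repeat holds only as the mask defines it. The mask covered 34.3% of the bases of these chromosomes in runs that were mostly short, the shortest of 19 bases and the median of 29 bases. The masked run at a member's summit had a median of 44 bases, with quartiles of 26 and 87, and in 1295 members (54.6%) it was under 50 bases. Within 50 bases on either side of a member's summit, a median of 55.4% was masked. The longest run at a member's summit was 1490 bases, and 130 members were masked throughout the 50 bp on either side. The median member was thus masked in a short stretch and not over a whole repeat copy, and the program that made the mask is not given in the sources used here. Sequence shared with other regions was a second measure of repeat origin, not independent of the mask by which the members were chosen. Each class was aligned only to itself. By this measure 1188 of the 2373 members (50.1%, 95% Wilson interval 48.1% to 52.1%) belonged to a family of at least 2 members. Among the unmasked distal regions, 629 of 11188 did (5.62%). A family joined regions whose sequence within 150 bp of the summit aligned over at least 100 bases at 70% identity or more, with the summits within 25 bases of each other.

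Regions just inside and outside the limits of the rule are given for description. The 214 members over 1 and up to 2 kb from a TSS had a median signal of 27.4, and 84 of them (39.3%) had a composite. The 104 masked regions between 0.5 and 1 kb from a TSS, left out by the rule, had a median of 28.6, and 50 of them (48.1%) had a composite. The 6 CpG-rich masked regions that were left out had a median of 51.1 and no composite.

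The families were dominated by one sequence. Family 1 held 761 members, 32.1% of all. At 80% identity in place of 70% the largest family held 303 members (12.8%), and 25.2% of members were in any family. Of the 761 members, 598 (78.6%) had a composite within 50 bp of the summit, 583 of them in the form TGACTCAGCA nearest to the summit. The element lay a median of 8.5 bp from the summit. The median signal of the family was 30.04, with quartiles of 20.9 and 50.1 and a maximum of 315.5. In the relaxed lists the medians were 14.6 in replicate 1 and 15.8 in replicate 2, and 315 of the 761 regions (41.4%) overlapped the thresholded lists of both replicates. In all, 432 of the 761 (56.8%) were intronic.

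**Figure D1:**
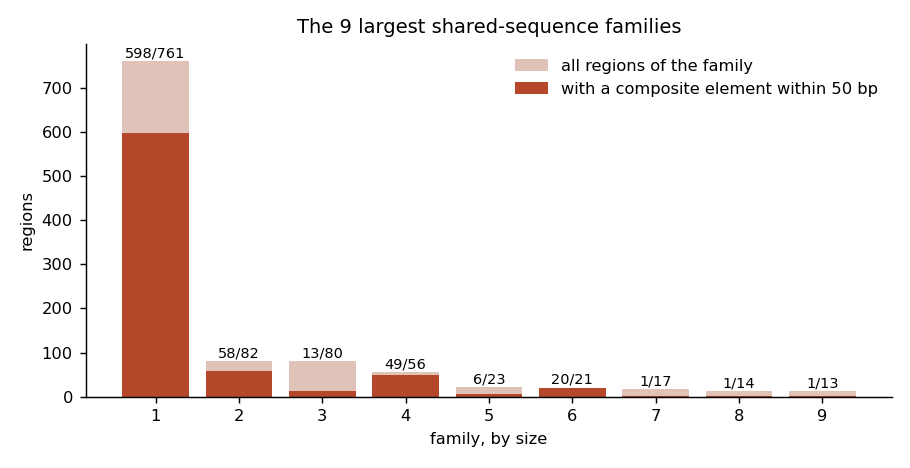
Number of regions (y axis) in each of the 9 families with at least 10 members, ordered by size (x axis). Dark bars are regions with a composite element within 50 bp of the summit. Family 1 has 598 of 761 with the element, while families 3, 7, 8 and 9 have 13 of 80, 1 of 17, 1 of 14 and 1 of 13.

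The next families were far smaller and differed in their elements. Family 2 had 82 members, 58 with a composite, of which 57 had the form TGAGTCAGCA. Family 4 had 56 members, 49 with a composite, and all 56 had the MAF core TGCTGA within the window. In its consensus a near copy of the element, ending in the same bases, directly precedes the composite. Family 6 had 21 members, 20 of them with TGACTCAGCA. Its median signal of 36.6 was the highest of the 9 families, and 13 of the 21 overlapped both replicates' lists.

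Family 3 carried a diverged site. Of its 80 members 65 had a T-MARE with up to 2 mismatches, and 13 had a composite. Its consensus differs from the composite by A18C, counted from 1 at the first base of the 30-base consensus printed above. The 13 members with a composite had a median signal of 46.6, and 11 of them overlapped both replicates' lists. The other 67 had a median of 28.1, and 23 overlapped both. In family 1 the medians were 32.7 for the 598 with a composite and 21.7 for the 163 without one, and the shares in both lists were 45.8% and 25.2%. In family 5, the order was the opposite, with 19.2 for 6 members with a composite and 22.8 for 17 without. The ranges of both groups overlapped in these 3 families.

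The remaining families rarely held the composite. Family 7 had 1 composite among 17 members and the lowest median signal of the 9, at 15.2. Family 8 had 1 among 14 members. Family 9 had 1 among 13 members, and 12 of the 13 had the MAF core, set in the sequence printed above. Of the members in no family, 330 of 1185 (27.8%) had a composite, close to the 27.2% of unmasked distal regions.

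B1 is the other abundant SINE class of the mouse, derived from 7SL RNA. It was looked for by alignment to the one B1 copy that the RefSeq annotation of GRCm38 names on chromosome 7, at chr7:103823699-103823836, over at least 50 bases across the summit. The match was found at 27 members (1.14%, interval 0.783% to 1.65%) and at 8 of the 11188 unmasked distal regions (0.0715%). Windows 1000 bp to either side of the members whose central base was also masked numbered 1447, and 140 of these (9.68%, interval 8.26% to 11.3%) had a B1 match. Members were thus less often B1 than the masked sequence around them, with an odds ratio of 0.107 (95% interval 0.0708 to 0.163; Fisher's exact test, p = 1.23e-35). This p-value and the others below describe these lists, because regions and copies are not independent replicates.

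Copies of the family 1 site in the whole genome show which of them were bound. A copy was any place where the 12 consensus bases on each side of the element matched with up to 5 mismatches over both sides, whatever the 10 bases between. This consensus came from the family 1 regions with a composite, all of them in the optimal list. There were 169666 such copies, 93.5% of them with a masked centre, and 738 (0.435%) had a summit of the optimal list within 50 bp. The composite stood in 1619 copies, and 582 of the 738 bound copies were among these. Forms were read from the reference genome, which is of another strain than the cells, so single bases may differ in the cells. A summit within 50 bp can also belong to another element nearby. What these limits add to the lowest bound shares was not tested.

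The most frequent form of the 10 bases was not the composite but TGGCTCAGTG, in 44100 copies. It differs from TGACTCAGCA at 3 positions, written here as G13A, T19C and G20A and counted from 1 at the first base of the 30-base consensus of family 1. The 8 forms between them held 80818 copies and 661 of the bound ones. The unchanged form was bound in 6 of 44100 copies (0.0136%, interval 0.00624% to 0.0297%). The form with all 3 changes was bound in 569 of 1570 (36.2%, interval 33.9% to 38.7%).

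The intermediate forms give each change in each setting. G13A alone was bound in 5 of 1975 copies (0.253%), T19C alone in 3 of 12124 (0.0247%), and G20A alone in 0 of 2422, which allows a share of up to 0.124%. These single changes left binding rare. With 2 changes, G13A and T19C (TGACTCAGCG) gave 47 of 466 bound (10.1%, interval 7.67% to 13.2%). T19C and G20A (TGGCTCAGCA) gave 30 of 17900 (0.168%), and G13A and G20A (TGACTCAGTA) gave 1 of 261 (0.383%). Only the form with both G13A and T19C passed 1% among the intermediate ones.

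Each of the 3 changes went with a higher bound share where the other 2 were present. Without and with G13A the share was 0.168% and 36.2%, with an odds ratio of 339 (interval 233 to 491). Without and with T19C it was 0.383% and 36.2%, an odds ratio of 148 (interval 20.7 to 1056; exact adjusted p = 4.11e-44.) Without and with G20A it was 10.1% and 36.2%, an odds ratio of 5.07 (interval 3.69 to 6.97; exact adjusted p = 1.31e-30.) Of the 12 single steps between the 8 forms, 7 passed an adjusted p of 0.05 (Fisher's exact test with Benjamini-Hochberg adjustment). Among them was G13A added to the unchanged form (0.0136% to 0.253%, odds ratio 18.7, exact adjusted p = 1.07e-04). T19C added to the unchanged form did not pass (exact adjusted p = 0.499), nor did G20A added to it (exact adjusted p = 1).

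**Figure D2:**
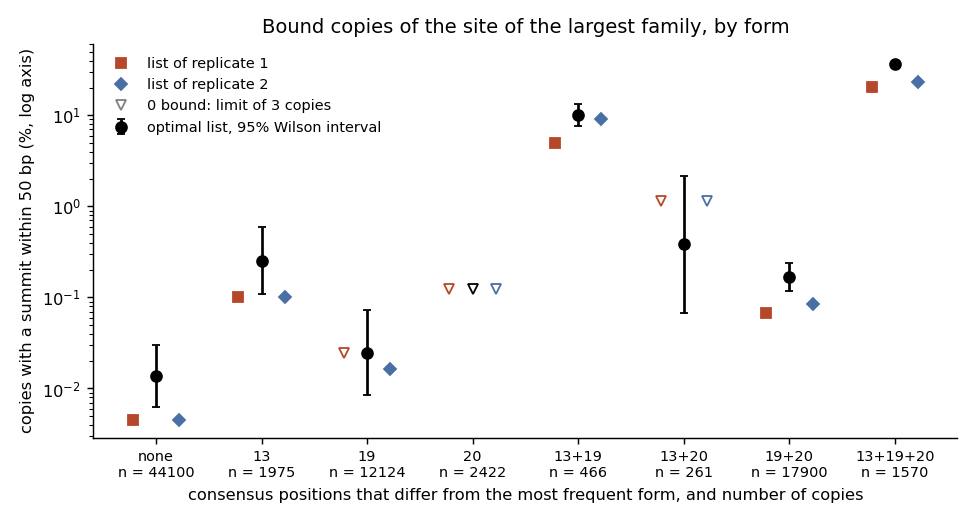
Share of copies of the family 1 site with a summit within 50 bp (y axis, log scale) for the 8 forms between the most frequent form and the composite (x axis, consensus positions changed). Black points are the optimal list with 95% Wilson intervals, squares and diamonds the lists of replicates 1 and 2, and open triangles the limit that 0 bound copies allow. The form changed at 13, 19 and 20 reaches 36.2%, the form changed at 13 and 19 reaches 10.1%, and the other 6 stay under 0.4%.

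The order at the top held in the list of each replicate. The composite form was bound in 325 copies (20.7%) by list 1 and in 366 (23.3%) by list 2 of the replicates, a mean of 22.01% ± 1.85 (SD, n = 2). For TGACTCAGCG the counts were 23 (4.94%) and 42 (9.01%), a mean of 6.97% ± 2.88 (SD, n = 2). For TGGCTCAGCA they were 12 (0.0670%) and 15 (0.0838%). The forms also differed in how well reads can be placed: the 36 bases around the centre occurred once in the genome for 32.3% of the copies of the most frequent form and for 79.7% of those with TGACTCAGCA. Among such unique copies the shares were 0.0210% (3 of 14264) and 38.7% (484 of 1252). The labels give no read length, and 36 bases were used as a measure of uniqueness only.

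A few other words at the site had bound copies. The second form of the composite, TGAGTCAGCA, was bound in 13 of 49 copies (26.5%). TGACTCAGCT was bound in 9 of 127 (7.09%) and TGACTCGGCA in 6 of 49 (12.2%). These are the words with at least 5 bound copies beyond the 8 forms, and their shares were not tested against that of TGACTCAGCA.

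Copies with an identical TGACTCAGCA still differed by the bases around it. Each base with at least 40 copies was set against the common base at its position, in 38 tests over the 24 flanking bases, and 8 passed an adjusted p of 0.05. The copies were chosen by the consensus of regions in the optimal list, so these 38 tests are not independent of that list. With G9A, 2 bases before the element, 12 of 122 copies were bound (9.84%), against 38.8% of 1390 with the common base (odds ratio 0.172, exact adjusted p = 2.33e-10). With T22G, 2 bases after the element, the share was 13.1% of 130 copies against 39.4% of 1359 (odds ratio 0.231, exact adjusted p = 5.34e-09), and with T22C it was 15.1% of 53 copies (exact adjusted p = 0.00158). With A6T it was 11.3% of 80 copies against 38.0% of 1405 (odds ratio 0.207, exact adjusted p = 3.48e-06). Positions are again those of the 30-base consensus.

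Other changes went with a higher share. With A24T, 4 bases after the element, 28 of 40 copies were bound (70%, interval 54.6% to 81.9%), against 35.4% of 1445 (odds ratio 4.25, exact adjusted p = 1.46e-04). With G5A, 70 of 131 were bound (53.4%) against 34.7% of 1382 (odds ratio 2.16, exact adjusted p = 2.79e-04). Among copies with at most 3 flank mismatches the G5A odds ratio was 1.31 and did not pass (exact p = 0.356). The remaining 2 tests that passed were at a position outside the 30 bases, and both had a higher share than the common base, at 45.1% of 162 and 53.1% of 49 copies against 34.3% of 1321. For G9A the shares were 2.46% in replicate 1 and 6.56% in replicate 2, against 22.2% and 25.1% with the common base. For A24T they were 37.5% and 57.5%, against 20.3% and 22.3%.

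The place of a TGACTCAGCA copy also went with its bound share. The share was 47.3% of 93 copies within 1 kb of a TSS, 39.1% of 422 from 1 to 5 kb, 39.2% of 586 from 5 to 20 kb, 31.4% of 287 from 20 to 50 kb and 21.98% of 182 beyond 50 kb. Copies beyond 50 kb were bound less often than nearer ones (odds ratio 0.457, interval 0.317 to 0.660; exact adjusted p = 5.08e-05). Neighbouring classes up to 50 kb had overlapping intervals. Copies inside genes were bound in 39.5% of 842 cases and those outside genes in 32.4% of 728 (odds ratio 1.36, exact adjusted p = 0.00377). With replicate 1's peaks alone this difference missed the threshold (odds ratio 1.28, exact p = 0.0529).

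On X, 12 of 74 copies were bound (16.2%, interval 9.53% to 26.2%), against 37.2% of 1496 on the other chromosomes (odds ratio 0.326, interval 0.174 to 0.611; exact adjusted p = 2.19e-04). The shares on X were 5.41% and 6.76% in the lists of replicates 1 and 2, against 21.5% and 24.1% elsewhere. The labels call the line male, so X and other chromosomes differ in copy number, and the part of copy number in this difference was not tested. The share of unique copies was 83.8% on X and 79.5% elsewhere. Copies whose 36 bases were unique were bound more often than the others, at 38.7% of 1252 against 26.7% of 318 (odds ratio 1.73, exact adjusted p = 1.32e-04).

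Over all members, the composite was more frequent than at unmasked distal summits. It was present within 50 bp of 1102 of 2373 member summits (46.4%, interval 44.4% to 48.4%) and of 3039 of 11188 unmasked ones (27.2%, interval 26.3% to 28%), an odds ratio of 2.32 (interval 2.12 to 2.55; exact adjusted p = 2.08e-71 over 10 elements). In the replicates' own lists it was present at 55.7% of 1208 and 52.6% of 1492 masked distal summits, a mean of 54.2% ± 2.19 (SD, n = 2), against 34.4% ± 2.01 of unmasked ones. In the masked flank windows it was present in 1 of 1447 (0.0691%).

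Other elements of the MAF and AP-1 group were also higher at members. The T-MARE palindrome, TGCTGACTCAGCA or TGCTGAGTCAGCA with up to 2 mismatches, was present at 50.4% of members and 40.3% of unmasked summits (odds ratio 1.51, exact adjusted p = 3.55e-19). The AP-1 core, TGACTCA or TGAGTCA, which JUN and FOS proteins bind, was present at 52.9% and 37.2% (odds ratio 1.90, exact adjusted p = 2.74e-44). The ARE core, TGACNNNGC or TGAGNNNGC, was present at 67.9% and 61.4% (odds ratio 1.33, exact adjusted p = 7.30e-09), and the MAF core TGCTGA at 69.2% and 65.6% (odds ratio 1.18, exact adjusted p = 0.00105). With replicate 1's peaks alone the MAF core missed the threshold (odds ratio 1.17, exact adjusted p = 0.0536), as it did with windows of 25 bp (odds ratio 1.06, exact adjusted p = 0.264). These elements overlap each other, and every composite contains the AP-1 and ARE cores and, on its other strand, the MAF core. In the masked flanks the T-MARE stood in 0.415% of windows, the AP-1 core in 0.898%, the ARE core in 5.25% and the MAF core in 5.53%.

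The difference rested largely on family 1. Without its 761 members, the composite was present at 504 of 1612 (31.3%, interval 29.0% to 33.6%), an odds ratio of 1.22 (exact adjusted p = 0.00538) against unmasked summits. The other odds ratios without family 1 were 0.911 for the T-MARE (exact adjusted p = 0.131), 1.01 for the AP-1 core (exact adjusted p = 1), 0.872 for the ARE core (exact adjusted p = 0.0299) and 0.835 for the MAF core (exact adjusted p = 0.00538). The composite was thus the only one of these 5 that stayed higher outside family 1, and the ARE and MAF cores were lower there. It was present at 174 of 427 members of other families (40.7%) and at 330 of 1185 in no family (27.8%). The share at unmasked summits was 27.2%, and their own families were not removed.

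**Figure D3:**
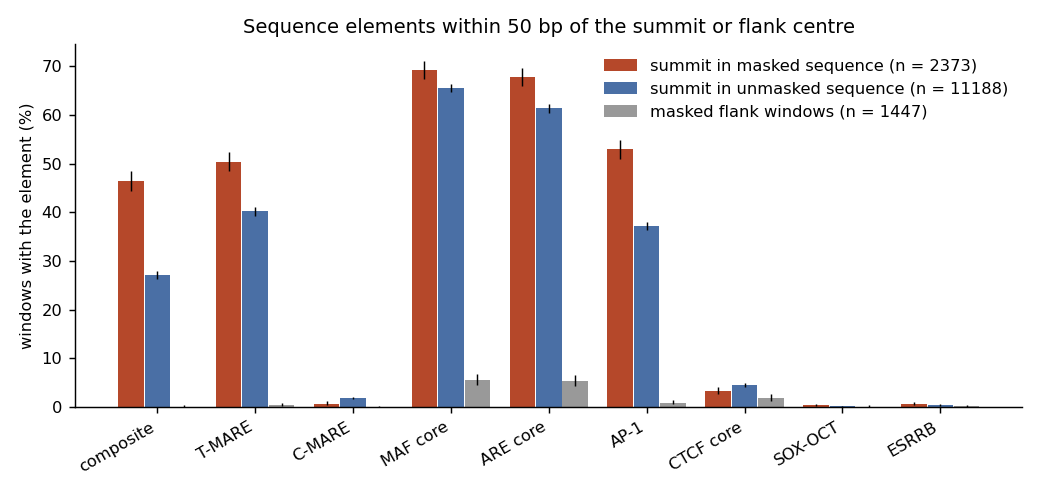
Share of windows with each of 9 elements within 50 bp (y axis, percent; error bars are 95% Wilson intervals) for members, unmasked distal summits and masked flank windows. The composite is at 46.4%, 27.2% and 0.0691% in this order, while the C-MARE and the CTCF core are lower at members than at unmasked summits.

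The CRE-type palindrome went the other way. The C-MARE with up to 2 mismatches was present at 17 members (0.716%) and at 205 unmasked summits (1.83%), an odds ratio of 0.387 (interval 0.235 to 0.635; exact adjusted p = 6.99e-05). The core of the CTCF motif, the site of the insulator protein CTCF, was present with up to 1 mismatch at 3.24% of members and 4.53% of unmasked summits (odds ratio 0.707, exact adjusted p = 0.00639). With windows of 100 bp the CTCF odds ratio was 1.23, so its direction depended on the window. It also missed the threshold with the list of replicate 1 (exact adjusted p = 0.0853).

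Elements of pluripotency factors were rare. The SOX-OCT composite with up to 2 mismatches was present at 8 members (0.337%) and 16 unmasked summits (0.143%; exact adjusted p = 0.0694). The ESRRB element TCAAGGTCA, bound by the orphan receptor ESRRB, was present at 13 members (0.548%) and 45 unmasked summits (0.402%; exact adjusted p = 0.336). Some alternatives gave calls: the SOX-OCT odds ratio was 4.95 among the strongest 50% of regions (exact adjusted p = 0.0120) and 3.48 without family 1 (exact adjusted p = 0.0236). The ESRRB odds ratio was 2.33 with the mask defined by at least 50% of the window (exact adjusted p = 0.0116) and 1.84 in the deposited list of a second processing run (exact adjusted p = 0.0437). The composite read backwards was found in none of the 2373, 11188 and 1447 windows. It has the same base content but holds a CpG, which the composite does not, and CpG-rich regions had been left out. Its count therefore does not give the chance rate of the composite.

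The position of the composite did not separate both classes. Among the 1184 members with a composite within 300 bp, the nearest lay a median of 10.5 bp from the summit, with quartiles of 5.5 and 19.5 bp. In the 3199 unmasked regions with one, these 3 values were the same. The element was within 25 bp of the summit in 82.2% and 83.8% of these regions.

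The signal value is a score of the authors without a stated scale, so it is used here only to rank and describe. Members had a median of 27.4 with quartiles of 19.5 and 45.9, and unmasked distal regions a median of 28.4 with quartiles of 19.4 and 49.4. In the relaxed lists the medians were 13.7 for members and 14.1 for unmasked regions in replicate 1, and 14.4 and 14.8 in replicate 2. The distributions overlapped almost fully.

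The composite was more frequent in stronger members. When all distal regions were split into deciles by signal, 35 of the 250 members of the weakest decile had a composite (14%, interval 10.2% to 18.8%). In the fifth decile it was 132 of 264 (50%), and in the strongest 133 of 193 (68.9%, interval 62.1% to 75.02%). In unmasked regions the share was 9.49% in the weakest, 23.5% in the fifth and 53.2% in the strongest decile. The intervals of both classes did not overlap from the second decile to the strongest, while those of the weakest did.

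**Figure D4:**
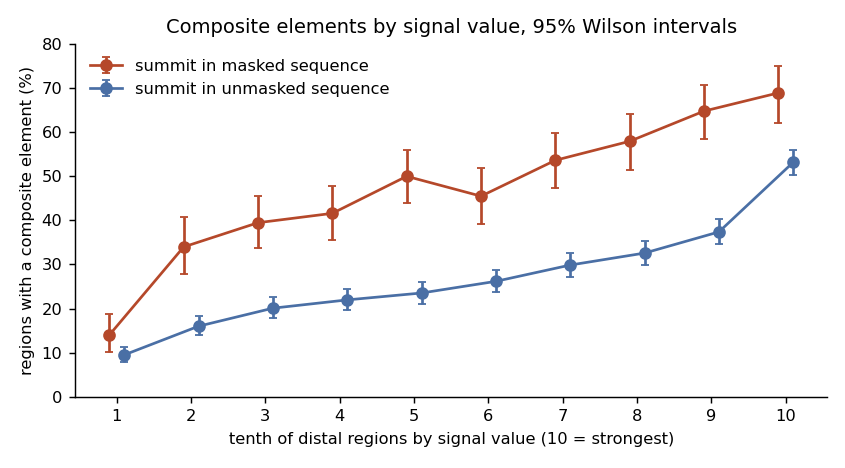
Share of regions with a composite element (y axis, percent; 95% Wilson intervals) in deciles of distal regions by signal value (x axis) for masked and unmasked summits. The share at masked summits goes from 14% in the weakest to 68.9% in the strongest decile and is above that at unmasked summits in each decile.

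Members with several composites had the highest signal. The median was 23.5 in the 1271 members with none within 50 bp, 32.9 in the 1076 with 1, 99.9 in the 20 with 2 and 228.0 in the 6 with 3 or more. Of these groups, 26.9%, 46.2%, 95% and 100% overlapped the lists of both replicates. The medians in the relaxed lists were 11.9, 16.3, 44.1 and 113.9 for replicate 1 and 12.3, 16.7, 51.9 and 113.3 for replicate 2. The order was the same in both replicates.

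Family 1 repeated this order, with medians of 21.7 in 163 regions, 32.1 in 586, 146.4 in 9 and 253.2 in 3. So did the unmasked regions, with 25.9, 38.5, 95.6 and 232.7. The ranges overlapped widely: a member with 1 composite reached 509.4, and the lowest of the 6 members with 3 or more was 129.9. This is a description of the list, and the groups were not tested against each other.

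**Figure D5:**
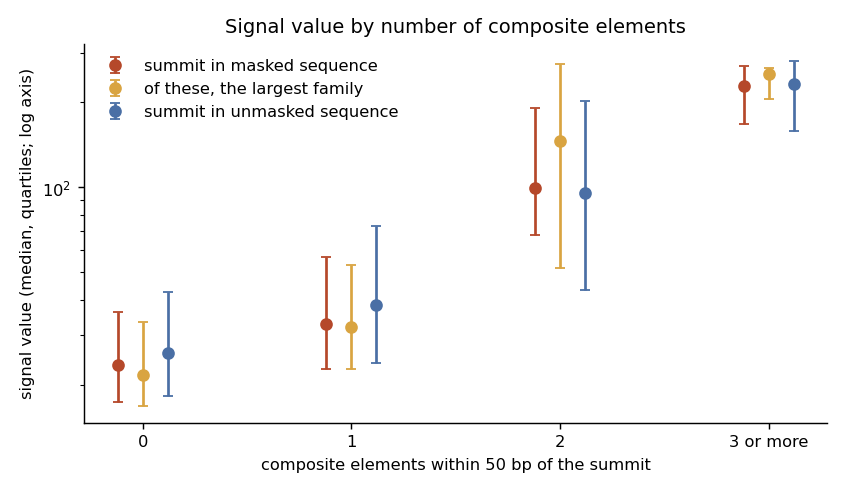
Signal value (y axis, log scale; points are medians and bars reach to the quartiles) by number of composite elements within 50 bp of the summit (x axis) for members, family 1 and unmasked distal regions. The medians of members are 23.5, 32.9, 99.9 and 228.0 for 0, 1, 2 and 3 or more elements.

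Composite elements as a whole were bound about as often in masked as in unmasked sequence. Among the 20248 distal elements of the genome, 1341 of 6215 in masked sequence had a summit within 50 bp (21.6%, interval 20.6% to 22.6%), against 3001 of 14033 in unmasked sequence (21.4%, interval 20.7% to 22.1%). The odds ratio was 1.01 (interval 0.941 to 1.09; Fisher's exact test, p = 0.766). The comparison depended on uniqueness: of elements whose surrounding 36 bases occur once, 25.4% of 4795 masked and 22.05% of 13515 unmasked ones were bound (odds ratio 1.20, interval 1.11 to 1.30; exact p = 3.47e-06). With regions that overlapped both replicates' lists, the odds ratio was 0.825 (exact p = 1.08e-04). Its direction is therefore not settled by these lists.

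A few elements were full palindromes, TGCTGACTCAGCA or TGCTGAGTCAGCA with no mismatch. In masked sequence 10 of 12 distal ones were bound (83.3%, interval 55.2% to 95.3%) and in unmasked sequence 317 of 329 (96.4%, interval 93.7% to 97.9%). The difference did not pass the test (exact p = 0.0817), and 12 elements limit its precision.

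Members lay nearer to genes than unmasked distal regions. Members were a median of 18087 bp from a protein-coding TSS and unmasked regions 25622 bp, and 28.4% of members against 35.1% lay beyond 50 kb (odds ratio 0.736, interval 0.668 to 0.812; exact adjusted p = 1.34e-09 over 3 measures). The intronic share was 50.7% of members and 51.6% of unmasked regions (odds ratio 0.966, interval 0.884 to 1.06; exact adjusted p = 0.663). On X lay 39 members (1.64%) and 172 unmasked regions (1.54%; odds ratio 1.07, interval 0.754 to 1.52; exact adjusted p = 0.715).

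Members and unmasked regions overlapped the lists of both replicates at similar shares. Of the members 864 (36.4%, interval 34.5% to 38.4%) overlapped the thresholded lists of both replicates, against 35.8% (interval 34.9% to 36.7%) of unmasked regions (odds ratio 1.03, interval 0.937 to 1.13; exact p = 0.572). By replicate, 1119 members overlapped list 1 (47.2%) and 1295 overlapped list 2 (54.6%). Fewer members than unmasked regions overlapped neither list, at 34.7% against 38.0% (odds ratio 0.865, interval 0.788 to 0.949; exact adjusted p = 0.00888 over 4 tests). The optimal list and the replicates' lists come from different processing runs, so this overlap crosses both runs. All of them come from the same 2 replicates, so the overlap is not an independent finding of the regions.

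The 15 strongest members that overlapped both replicates' lists were mostly intronic composites. Of these, 13 were in introns, 14 had a composite, 6 had at least 2, and 7 belonged to family 1. Their lowest signal was 247.6. The strongest was in an intron of Esrrb, which codes for an orphan nuclear receptor of the pluripotency network, at chr12:86488041-86488429 and 16167 bp from the nearest protein-coding TSS. Its signal was 509.4, against 266.6 and 247.5 in the replicates' relaxed lists. It belonged to no family, and 23.8% of the bases within 50 bp of its summit were masked.

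The sequences of 5 of them, with the composite nearest to the summit in capitals, show both settings: the first 2 have TGC before the AP-1 core as well and so hold the full palindrome, and the last 3 have the family 1 surroundings.
Esrrb intron, chr12:86488216-86488245, plus strand: ggtaaaatgcTGACTCAGCAtattttgatt
Atxn1 intron, chr13:45751407-45751436, plus strand: aggggagtgcTGACTCAGCAtcagtcagtg
Etl4 intron, chr2:20584012-20584041, minus strand: gctggagagaTGACTCAGCAgttatcgcac
Prkca intron, chr11:107986061-107986090, minus strand: tggagagagaTGACTCAGCAgttaagagta
Smyd4 intron, chr11:75383625-75383654, minus strand: gctggagagaTGACTCAGCAgttaaatcca
The region in Atxn1, the gene of the polyglutamine protein ataxin-1, had 3 composites and a signal of 395.6, with 214.4 in replicate 1 and 181.6 in replicate 2. The region in Etl4 had a signal of 307.1, with 148.0 and 160.3 in the replicates. It was placed in no family by the alignment limits, although the 10 bases before its element are those of the family 1 consensus.

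Other strong regions of family 1 also held several elements. The region in Prkca, which codes for protein kinase C alpha, had 2 composites and a signal of 272.8, with 136.3 in replicate 1 and 138.1 in replicate 2. The region in Smyd4 had 3 composites and 253.2, with 126.7 and 126.9. The strongest of family 1 was intergenic, 102880 bp from the TSS of Ttc29, at chr8:78110262-78110570. It had 2 composites and a signal of 315.5, with 162.9 and 154.8 in the replicates. These regions were picked for a high signal in the optimal list, so their values do not describe the agreement of the replicates over all members.

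Members near genes were counted for all protein-coding genes and for fixed gene lists. Of 21728 protein-coding genes, 881 (4.05%) had a member within 10 kb of a TSS. Of 28 antioxidant genes 1 had one, Prdx1, of 20 heme and iron genes 2 had one, Alas1 and Blvra, and of 20 pluripotency genes 3 had one, Zfp42, Dppa5a and Tdgf1. None of the 10 small MAF and CNC factor genes and none of the 15 housekeeping genes had one. With lists of this size, these counts are not read as different from the 4.05% of all genes.

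The member near Prdx1, which codes for the peroxide-reducing enzyme peroxiredoxin 1, was a family 1 copy at chr4:116680582-116680877, 4814 bp from the TSS. Its sequence is shown because it is the antioxidant list's only member.
Prdx1, chr4:116680704-116680733, minus strand: gctggagagcTGACTCAGCActtaagaaca
Its signal was 59.0, with 29.9 and 27.9 in the replicates, and it overlapped both thresholded lists. It differs from the family 1 consensus by A10C, G21C and G28A.

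The members near the other list genes were weaker, and none overlapped both thresholded lists. The region 6948 bp from the TSS of Alas1, the first enzyme of heme synthesis, had a signal of 21.9 and overlapped the list of replicate 2 only. The region 9914 bp from Blvra, which codes for biliverdin reductase, had 19.8. The region 8367 bp from Zfp42, known as Rex1, had 17.1, and the region 1307 bp from Dppa5a had 13.1. The region 4138 bp from Tdgf1, which codes for the NODAL co-receptor Cripto, was of family 1 without a composite and had 51.8. Its nearest protein-coding TSS was not that of Tdgf1 but that of Lrrc2, at 1249 bp. Nearness to a gene was measured, and not control of it.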

How the data were processed

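The deposited files are region lists of MAFK ChIP-seq on mm10, made by the authors from 2 replicates. Per the deposited text notes, the authors derived the optimal and conservative lists with the irreproducible discovery rate in a first run, and the replicates' thresholded lists in a second run. Aligner, peak caller and filters on reads are not stated in the sources used. The signal value is a score deposited by the authors without a stated scale. The other deposited column used, the summit offset from the start of the region, gave the summit.

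Sequence and mask came from RefSeq's GRCm38 and genes from GENCODE vM21. The members, gene lists and tests were chosen with earlier results of these data known. Both strands were searched for elements up to 50 bp from the summit. Families came from blastn (BLAST 2.17.0, E-value up to 1e-05) between all windows of the same class. Shares were compared by Fisher's exact test, two-sided (SciPy 1.17.1), with Benjamini-Hochberg adjustment over the elements, steps, positions or measures tested together. Where a count was 0, 0.5 was added to each cell for the odds ratio, and p-values were floored at 1e-300. Shares have 95% Wilson intervals and odds ratios 95% intervals on the log scale, which cover counting error only. The limit of a count of 0 is 3 copies of the total. Element search, test and families were tested on simulated data. Named regions are the 15 strongest that overlap both replicates' lists, the strongest of each of the 8 largest families and the strongest within 10 kb of each listed gene. The form, base and place comparisons of the family 1 site, the 2 single family 1 members printed first and the B1 alignment were added after the data had been seen. Sequences on 1 chromosome are not reported here. Coordinates are 1-based.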

Additional observations from a re-analysis of the deposited data

How the results depend on the processing

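Of 281 alternative values of 36 results, 253 kept their side of the threshold or stayed within the allowed change. An odds ratio that changed direction was counted among these where neither it nor the main value passed the test. Examples are the occupancy odds ratio (0.915 and 0.959 in the lists of replicates 1 and 2, against 1.01) and the overlap with both replicates (0.992 with at least 50% of the region shared, against 1.03). The ESRRB odds ratio also fell below 1 with the strongest 50% of regions (0.938, against 1.36) and with regions overlapping both replicates (0.617). The composite's odds ratio against unmasked summits was 2.25 in the lists of both replicates and between 1.22 (without the largest family) and 2.78 (mask defined by at least 50% of the window) elsewhere, and passed the test each time. Element odds ratios that reversed where the main or the alternative value passed the test were as follows. They were 1.23 for the CTCF core with windows of 100 bp, and, without the largest family, 0.911 for the T-MARE, 0.835 for the MAF core and 0.872 for the ARE core. The occupancy odds ratio of composites in masked against unmasked sequence was 0.807 with the strongest 50% of regions, 0.825 with regions overlapping both replicates, 0.924 with a window of 25 bp, 1.15 with the second run and 1.20 with unique elements, and each of these passed the test. The cause was not tested. The intronic odds ratio was 0.878 to 0.960 in the replicates' lists, the lower one passing the test, and 0.889 with the second run, which also passed. At 80% identity, 25.2% of members were in families. The ratio of median signal, members over unmasked regions, was 0.963 in the optimal list and 0.926 to 0.946 in the replicates' lists. Within 50 kb, 3179 of 21728 protein-coding genes (14.6%) and 20 listed genes had a member. By list these were 5 of 28 antioxidant, 4 of 20 heme and iron, 5 of 20 pluripotency and 2 of 10 small MAF and CNC genes. The highest share was that of the housekeeping genes, 4 of 15 (26.7%). These counts are again not read as different from the share of all genes. The second run, the removal of the largest family and all alternatives for the copies of the family 1 site were chosen after seeing the data. No paired analysis was possible because the study has 1 group. The deposited regions hold no read counts, so what depth limits could not be measured.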
